A study of Mus musculus with 6 samples.

Results

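Arginine is the shared substrate of 2 enzymes that divide macrophage metabolism, and 10 mouse genes around it are described here: the arginases Arg1 and Arg2, the inducible nitric oxide (NO) synthase Nos2, the cationic amino acid transporters Slc7a1 and Slc7a2, the citrulline-recycling enzymes Ass1 and Asl, the cofactor enzymes Gch1 and Pts, and the ornithine decarboxylase Odc1. The members were chosen by name, with earlier results of these data known, and each was read from the probe set that the platform annotation assigns to it, the brightest over the 6 arrays where there were several. Of the 10, 9 are among the 19938 genes with a probe set of their own, all 9 lay above the intensity filter (log2 7.49) and all 9 were tested. Ass1 was read only by 2 probe sets that also name Gm5424, an argininosuccinate synthase pseudogene, so its values cannot be assigned to Ass1 alone.

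The study compared peritoneal macrophages of C57BL/6 mice aged 8 weeks, 3 arrays labelled LysMCre/Cre and 3 labelled KLF2∆/∆. Both groups carry the Cre recombinase in both copies of the myeloid lysozyme gene, and the second group also carries a floxed Klf2 gene (KLF2 FL/FL), which encodes a zinc finger transcription factor. All cells were drawn into the cavity by 2 ml of thioglycolate over 72 h, kept if they stuck to plastic within 4 h, rested for 24 h and given lipopolysaccharide (LPS, a bacterial cell wall component) at 100 ng/ml for 6 h. Untreated cells were not analysed here, so the values compare genotypes after LPS and not a response to it. Cre is made only where the lysozyme gene is on, so cells in the dish that never switched it on would keep Klf2. Deletion was not measured here in any cell type. No label ties an array to 1 mouse, so p-values measure the spread between arrays, which may be technical.

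Mouse macrophages take up arginine through cationic amino acid transporters and can oxidise it to NO and citrulline with NOS2 or split it to ornithine and urea with arginase. NOS2 is strongly induced by LPS and interferons and needs tetrahydrobiopterin, which is made in steps catalysed by GTP cyclohydrolase 1 (Gch1) and pyruvoyltetrahydropterin synthase (Pts). ARG1 is cytosolic and best known from macrophages exposed to interleukin-4, ARG2 is mitochondrial, and ornithine decarboxylase turns the ornithine they release into the first polyamine, putrescine.

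Median log2 intensity per array was 7.85 to 7.90. Arrays correlated across genes (which are not independent replicates) at an r of 0.994 to 0.997 within groups and of 0.981 to 0.986 between them. The targeted gene went against the label. Klf2 gave 8.88, 8.97 and 8.94 in LysMCre/Cre arrays and 9.10, 9.25 and 9.21 in KLF2∆/∆-labelled arrays, a log2 difference of 0.26 ± 0.064 (SE; limma adjusted p = 0.00398). No source used here places its probes relative to the deleted part, and probes outside that part would check nothing. Each direction below is therefore one between KLF2∆/∆-labelled arrays and arrays labelled LysMCre/Cre. Differences are of mean log2 intensity, KLF2∆/∆-labelled minus LysMCre/Cre, n = 3 in each, and the LysMCre/Cre values are given first.

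The 2 ends of the arginine branch point moved apart: Arg1 was 2.58-fold lower and Nos2 1.39-fold higher in KLF2∆/∆-labelled arrays. The transporter Slc7a2 and the polyamine enzyme Odc1 were also lower, by 1.32-fold and 1.33-fold. Arg2, Gch1, Pts, Slc7a1 and Asl did not pass the test. Thus 1 of 9 tested members rose, 3 fell and 5 did not pass an adjusted p of 0.05 (limma with Benjamini-Hochberg adjustment over 12649 genes). Over all tested genes 29.8% passed, 13.6% as higher and 16.2% as lower, and nothing is read from the share of so few members against that background. Groups did not overlap for 5 of the 9 members, 1 higher and 4 lower, against 40.8% of all tested genes (19.3% higher and 21.4% lower). The median log2 difference was -0.090 over the members and 0.0019 over all tested genes.

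**Figure D1:**
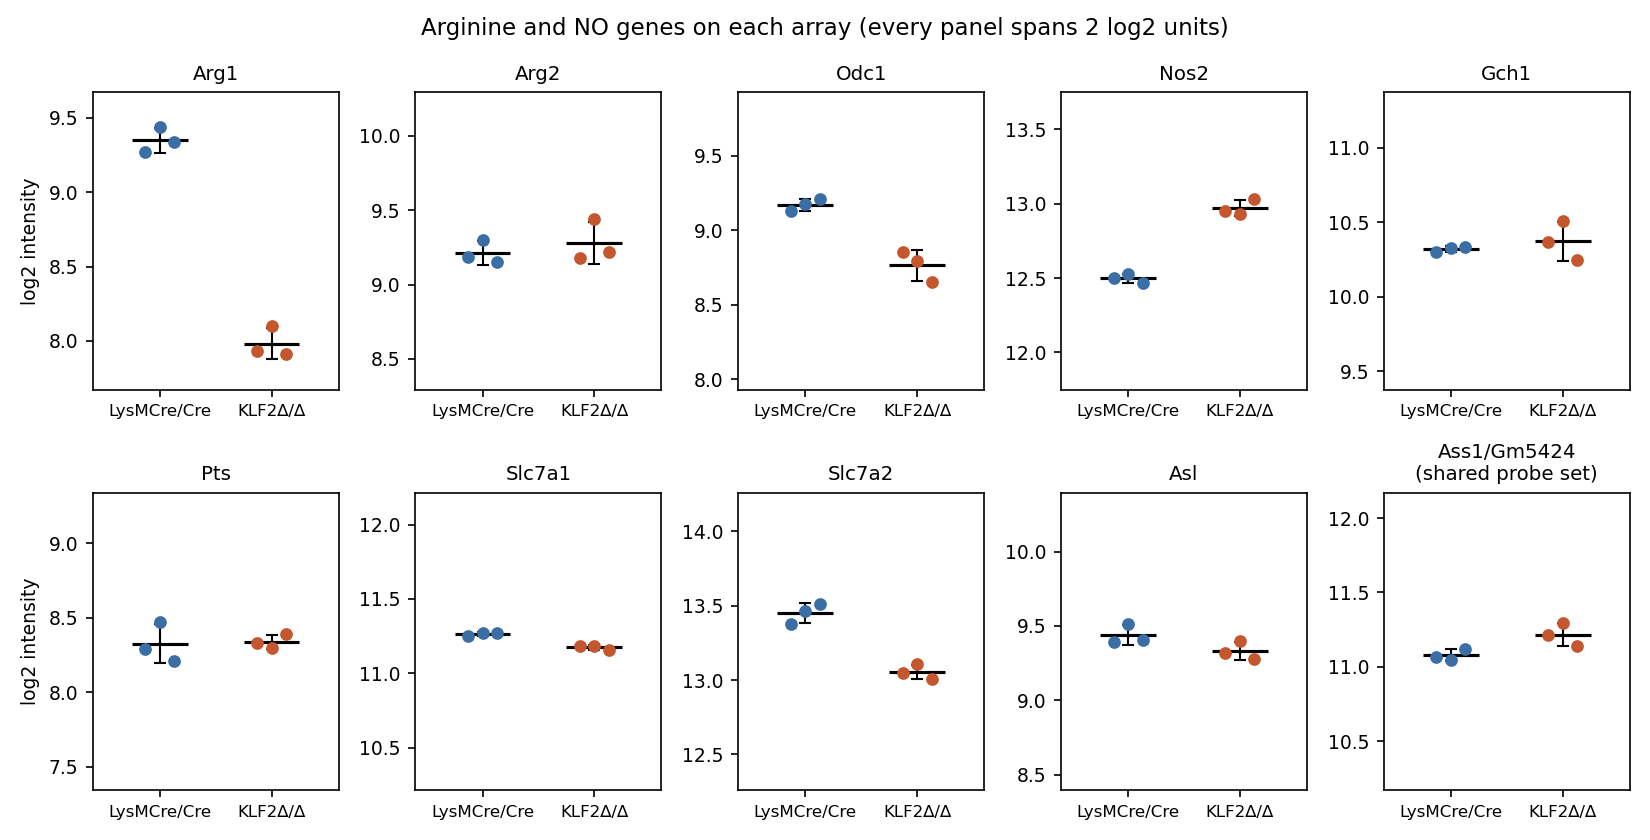
Log2 intensity (y axis, each panel spanning 2 log2 units) of each gene on the 3 LysMCre/Cre arrays (blue) and the 3 KLF2∆/∆-labelled arrays (orange), with the mean as a line and the SD as a bar. Arg1 shows the widest gap, from a mean of 9.35 to 7.98, while Nos2 lies higher and Slc7a2 and Odc1 lower in the second group; levels of different genes cannot be compared with each other.

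Arg1, the cytosolic arginase, gave log2 intensities of 9.27, 9.44 and 9.33 in LysMCre/Cre arrays and of 7.93, 8.10 and 7.91 in KLF2∆/∆-labelled arrays. Every array of the second group lay below every array of the first, with a gap of 1.17 between the groups against ranges of 0.17 and 0.19 within them. The difference was -1.37 ± 0.072 (SE, 95% interval -1.52 to -1.22, limma adjusted p = 1.96e-11), and 9 of 12649 tested genes had a more negative one. An exact permutation test over the arrays, two-sided, gave p = 0.1, and no lower value can be had with 3 arrays a group.

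Arg2, the mitochondrial arginase, did not share that difference. It gave 9.18, 9.30 and 9.15 in LysMCre/Cre arrays and 9.18, 9.44 and 9.22 in the others, so the groups overlapped. Its difference was 0.068 ± 0.072 (SE, adjusted p = 0.549), and the 95% interval of -0.082 to 0.22 leaves room for a change of up to 1.16-fold upwards. Without KLF2∆/∆ replicate 2, its brightest array, the difference was -0.012. The within-array difference between the arginases was tested directly: Arg2 minus Arg1 was -0.14 ± 0.048 in LysMCre/Cre arrays and 1.30 ± 0.048 in KLF2∆/∆-labelled arrays (SD, n = 3), a shift of 1.43 with no overlap (exact permutation p = 0.1).

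Nos2, the enzyme that makes NO from arginine in LPS-treated mouse macrophages, gave 12.50, 12.52 and 12.47 in LysMCre/Cre arrays and 12.95, 12.93 and 13.03 in KLF2∆/∆-labelled arrays. The arrays of each group lay within 0.10 of each other and the groups stood 0.41 apart, the second higher. The difference was 0.47 ± 0.036 (SE, 95% interval 0.40 to 0.55, limma adjusted p = 3.67e-09), and the exact two-sided permutation p was 0.1. A larger rise was measured in 139 of the 12649 tested genes, and a larger difference in either direction in 4.93% of them.

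Set within each array, Nos2 minus Arg1 was 3.23, 3.09 and 3.13 in LysMCre/Cre arrays and 5.02, 4.83 and 5.12 in KLF2∆/∆-labelled arrays. The group means were 3.15 ± 0.071 and 4.99 ± 0.15 (SD), so the ratio of the signals shifted by 1.84 on the log2 scale, or 3.58-fold. The exact permutation p was 0.1, the lowest that 3 arrays against 3 can give, and 0.125 when adjusted over the 5 pairs compared. Nos2 was higher and Arg1 lower on every KLF2∆/∆-labelled array, so this outcome was fixed by the values above. The shift is the sum of the sizes of those 2 differences and adds no evidence to them. The difference of 2 probe sets has no meaning as a level, and its change between groups is all that is read here.

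**Figure D2:**
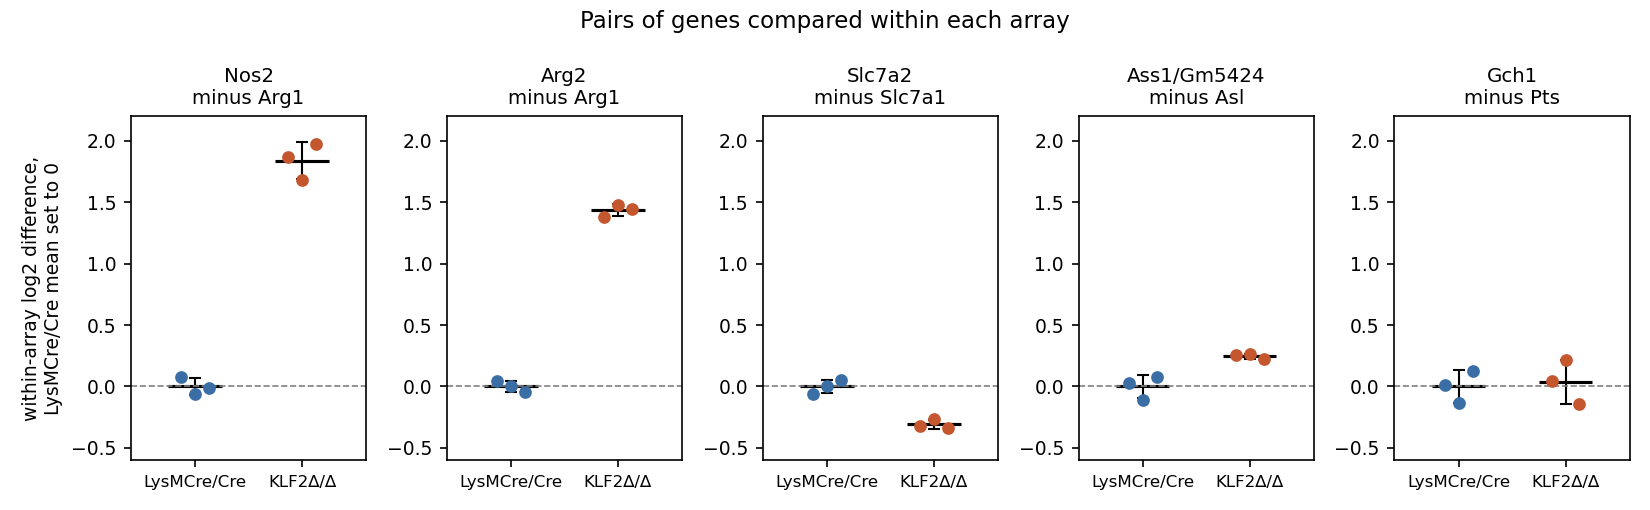
Within-array log2 difference between the genes of each pair (y axis, shifted so that the LysMCre/Cre mean is 0) on the 3 LysMCre/Cre arrays (blue) and the 3 KLF2∆/∆-labelled arrays (orange), with mean lines and SD bars. Nos2 minus Arg1 moved by 1.84 and Arg2 minus Arg1 by 1.43, Slc7a2 minus Slc7a1 moved down by 0.31 (-0.31), and Gch1 minus Pts overlapped between the groups.

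The enzymes that make the NO synthase cofactor did not move with Nos2 by this test. Gch1, which catalyses the first and rate-limiting step of tetrahydrobiopterin synthesis, gave 10.30, 10.33 and 10.34 in LysMCre/Cre arrays and 10.37, 10.51 and 10.24 in KLF2∆/∆-labelled arrays. The second group spread 6.89 times as wide as the first and enclosed it, and the difference was 0.051 ± 0.061 (SE, 95% interval -0.076 to 0.18, adjusted p = 0.601). Pts, which acts next in the same pathway, gave 8.29, 8.47 and 8.21 against 8.33, 8.30 and 8.39, a difference of 0.013 ± 0.074 (95% interval -0.14 to 0.17, adjusted p = 0.928). The sign of Gch1 turned without KLF2∆/∆ replicate 2 (-0.017), and that of Pts without LysMCre/Cre replicate 1 (-0.0036), LysMCre/Cre replicate 3 (-0.044) or KLF2∆/∆ replicate 3 (-0.013), so neither has a settled direction.

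Of the other genes listed for this cofactor, 3 were tested and none passed (median -0.041), against 29.8% of all tested genes: sepiapterin reductase Spr (-0.041), which completes the synthesis, and Qdpr (0.023) and Pcbd2 (-0.051), which recycle the used cofactor. Their unadjusted limma p was above 0.05 as well, and the count was 0 under each of the 17 alternatives. Gchfr, the feedback protein of GTP cyclohydrolase, and Pcbd1 lay below the intensity filter. Gchfr changed by -0.060 as measured. Pcbd1, described further after its values were seen, gave 7.35, 7.40 and 7.30 in LysMCre/Cre arrays and 7.03, 7.21 and 7.12 in the others. These did not overlap (-0.23 as measured, limma adjusted p = 0.0514 without the filter).

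The transporters differed from each other. Slc7a2 (CAT2), the arginine carrier that activated mouse macrophages depend on for sustained NO synthesis, gave 13.38, 13.46 and 13.51 in LysMCre/Cre arrays and 13.05, 13.11 and 13.01 in KLF2∆/∆-labelled arrays. No array of the second group reached the lowest of the first. The difference was -0.40 ± 0.037 (SE, 95% interval -0.47 to -0.32, limma adjusted p = 5.82e-08), opposite in sign to that of Nos2.

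Slc7a1 (CAT1), the widely expressed carrier of the same family, gave 11.25, 11.27 and 11.27 against 11.18, 11.19 and 11.16. The groups did not overlap and the arrays of each lay within 0.029 of each other, but the difference was small, -0.090 ± 0.044 (SE, 95% interval -0.18 to 0.0012), and did not pass (adjusted p = 0.137). After quantile normalization was applied again it was -0.13 and passed (adjusted p = 0.00985). Slc7a2 minus Slc7a1 was 2.19 ± 0.056 in LysMCre/Cre arrays and 1.88 ± 0.037 in the others (SD), a shift of -0.31 with no overlap (exact permutation p = 0.1).

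Among the 8 other listed carriers of arginine and related amino acids, 7 were tested, 1 fell and 1 rose, with a median of 0.025. This is a called share of 28.6%, beside 29.8% over all tested genes, and nothing is read from the count. Slc7a6, a light chain that exchanges cationic for neutral amino acids, gave 9.65, 9.60 and 9.69 in LysMCre/Cre arrays and 8.73, 9.04 and 8.88 in the others, a difference of -0.76 ± 0.071 (adjusted p = 6.06e-08) with no overlap. Slc7a7, the other light chain of that exchange system, rose by 0.22 ± 0.050 (adjusted p = 0.00243), from 10.31 to 10.53. The mitochondrial ornithine carrier Slc25a15 (-0.19, adjusted p = 0.0628) did not pass, but passed without KLF2∆/∆ replicate 1 (-0.24, adjusted p = 0.0358) and without the intensity trend (adjusted p = 0.0432). Under either of these settings or without KLF2∆/∆ replicate 3, 2 carriers fell rather than 1. Slc7a4, whose transport of arginine is not established, changed by 0.095 (adjusted p = 0.425).

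**Figure D3:**
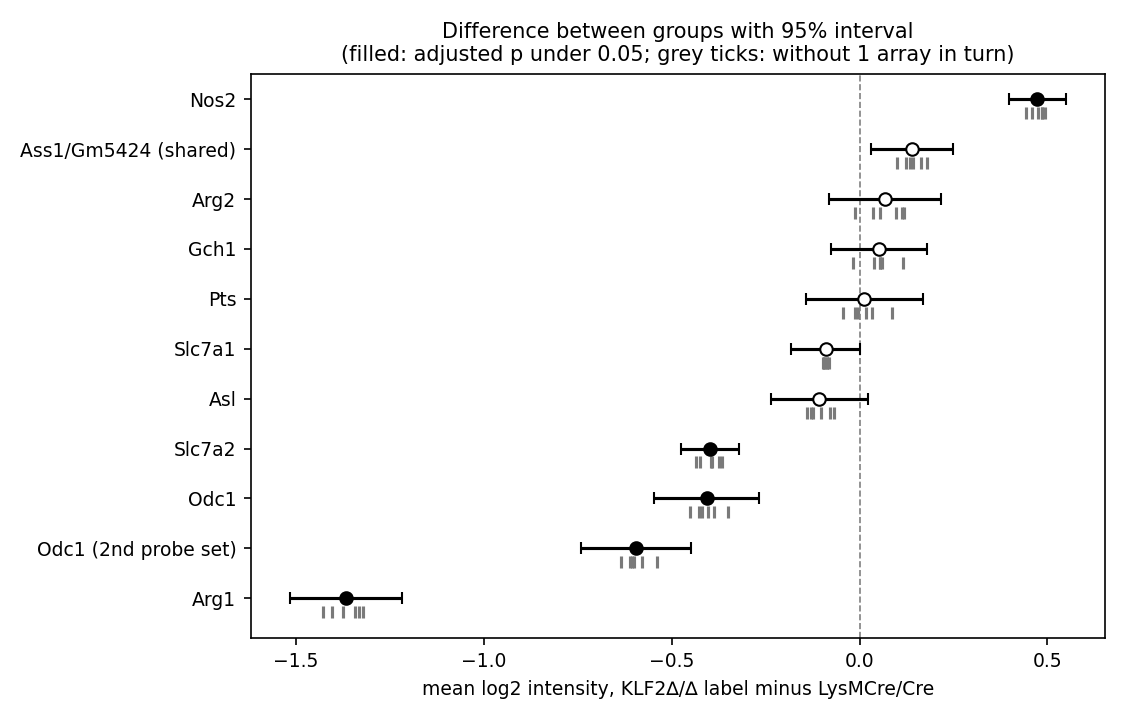
Difference of mean log2 intensity, KLF2∆/∆-labelled arrays minus LysMCre/Cre arrays (x axis), with the 95% interval for each gene or probe set; filled points have a limma adjusted p under 0.05 and grey ticks are the values with each array left out in turn. The intervals of Arg1, both Odc1 probe sets, Slc7a2 and Nos2 lie away from 0 and all their ticks keep the sign, while the ticks of Arg2, Gch1 and Pts fall on both sides.

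Ass1 and Asl rebuild arginine from the citrulline that NO synthases release. The brighter probe set shared by Ass1 and Gm5424 gave 11.06, 11.04 and 11.12 in LysMCre/Cre arrays and 11.21, 11.30 and 11.14 in KLF2∆/∆-labelled arrays. The groups stood 0.017 apart without overlap, and the difference was 0.14 ± 0.050 (SE, adjusted p = 0.0555 in a fit over all 17366 probe sets above the filter). The dimmer shared probe set gave 0.13 ± 0.049 (adjusted p = 0.0713). Both passed without KLF2∆/∆ replicate 3, at 0.18 (adjusted p = 0.0142) and 0.16 (adjusted p = 0.0272).

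Asl, which splits argininosuccinate into arginine and fumarate, gave 9.39, 9.51 and 9.41 against 9.32, 9.40 and 9.28. A single array of the second group reached into the first, and the difference of -0.11 ± 0.062 (SE, 95% interval -0.24 to 0.022) did not pass (adjusted p = 0.222). The shared probe set minus Asl moved from 1.64 ± 0.097 to 1.89 ± 0.020 (SD), a shift of 0.25 with no overlap (exact permutation p = 0.1) that became 0.17 when quantile normalization was applied again. Of the rest of the urea cycle, Otc and Cps1, best known from liver, lay below the filter, and Nags, which makes the activator of CPS1, changed by -0.099 (adjusted p = 0.407).

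Odc1, which commits ornithine to polyamines, gave 9.13, 9.18 and 9.21 in LysMCre/Cre arrays and 8.85, 8.79 and 8.65 in KLF2∆/∆-labelled arrays by its brighter probe set. The groups were 0.27 apart, and the second was the more spread by this probe set. The difference was -0.41 ± 0.067 (SE, 95% interval -0.55 to -0.27, limma adjusted p = 8.38e-05). A second Odc1 probe set gave 9.01, 8.96 and 9.15 against 8.46, 8.41 and 8.46, a larger difference of -0.59 ± 0.068 (adjusted p = 2.29e-05 in the fit over all probe sets above the filter). By this second probe set the KLF2∆/∆-labelled arrays were the less spread (range 0.050 against 0.19).

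Of the 10 members, 5 had a promoter in the RefSeq table used here (build GRCm38.p6; 250 bases before the start site and 50 after). Odc1 is shown because it was the called member among them, at chr12:17544623-17544922 on the plus strand, and Gch1 as a member that did not pass, at chr14:47189364-47189663 on the minus strand. Both are written 5′ to 3′ on the gene's strand, and capitals mark matches, on either strand, to CACCC (the core bound by KLF factors), GGGCGG (a GC box) or CACGTG (an E-box).
Odc1: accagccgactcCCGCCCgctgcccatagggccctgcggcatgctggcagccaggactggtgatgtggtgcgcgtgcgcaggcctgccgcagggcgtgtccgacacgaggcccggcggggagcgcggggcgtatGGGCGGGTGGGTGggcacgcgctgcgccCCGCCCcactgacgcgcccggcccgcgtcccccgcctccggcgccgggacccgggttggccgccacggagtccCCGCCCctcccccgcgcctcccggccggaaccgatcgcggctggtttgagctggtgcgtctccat
Gch1: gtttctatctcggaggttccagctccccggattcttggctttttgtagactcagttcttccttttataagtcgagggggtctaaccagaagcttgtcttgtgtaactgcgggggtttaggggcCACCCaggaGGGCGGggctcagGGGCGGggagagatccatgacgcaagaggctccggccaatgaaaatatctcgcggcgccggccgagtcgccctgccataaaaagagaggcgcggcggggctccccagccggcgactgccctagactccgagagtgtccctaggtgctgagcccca
The Odc1 window held 2 matches to CACCC, on the reverse strand and starting 112 and 108 bases before the start site, which run into each other and into 1 of its 4 GC boxes. The Gch1 window held 1 CACCC and 2 GC boxes. CACGTG was found in neither. Among the members not shown, the Pts window held 4 CACCC and 1 GC box, although Pts did not pass. Of the Slc7a1 windows, 1 held 2 CACCC and 1 GC box and the other held 0 of each. The Ass1 window held 1 CACCC, 1 GC box and 1 CACGTG. Matches to CACCC thus did not set the called Odc1 apart from members that did not pass. Among 32851 promoters of this length, 57.5% held CACCC, 35.7% held GGGCGG and 7.15% held CACGTG, so the first is common, and a match is no evidence of binding. GC content was 78.0% in the Odc1 window and 60.3% in the Gch1 window, against a median of 52.7%.

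Polyamine genes around Odc1 went both ways. Of 16 others listed, 9 were tested, of which 3 fell and 2 rose, with a median of -0.13 (55.6% called, beside 29.8% of all tested genes). Srm, spermidine synthase, which acts on the product of ODC, gave 11.50, 11.44 and 11.41 in LysMCre/Cre arrays and 10.46, 10.66 and 10.61 in KLF2∆/∆-labelled arrays. This is a difference of -0.88 ± 0.053 (1.84-fold, adjusted p = 1.23e-10), with no overlap. Smox, spermine oxidase, rose by 0.36 ± 0.055 (adjusted p = 4.03e-05), and Sat1, the acetyltransferase that starts polyamine export and breakdown, by 0.24 ± 0.056 (adjusted p = 0.00250). Azin2, an antizyme inhibitor related to ODC, fell by 0.33 ± 0.082 (adjusted p = 0.00394), from 8.10 to 7.77. Eif5a, chosen after its values were seen as the third gene that fell and the protein modified with spermidine, fell by 0.14, and its call was lost under 4 of 17 alternatives (adjusted p up to 0.105). Without KLF2∆/∆ replicate 3, 4 of these genes rose rather than 2.

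Of 7 tested genes on other routes from arginine and ornithine, 3 fell and none rose, with a median of -0.065 (42.9% called, beside 29.8% of all tested genes, of which 16.2% were lower). Gatm, which uses arginine to start creatine synthesis, gave 11.40, 11.32 and 11.36 in LysMCre/Cre arrays and 10.80, 10.89 and 10.86 in the others (-0.51 ± 0.047, adjusted p = 5.37e-08). Oat, which turns ornithine towards proline and glutamate, fell by 0.33 ± 0.057 (adjusted p = 1.78e-04), from 9.87 to 9.55. Aldh18a1, which makes the proline precursor from glutamate, fell by 0.16 (adjusted p = 0.0331), but lost its call without LysMCre/Cre replicate 1, 2 or 3 and KLF2∆/∆ replicate 1 or 3, with adjusted p of 0.0537 to 0.224, and with arrays centred on their median (0.0710) or no intensity trend (0.0561). Aldh4a1 changed by -0.065 (adjusted p = 0.580).

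Beside Nos2, 8 of 11 listed NO synthases, partners and NO-removing proteins were tested, and 1 fell (median -0.032). This is a called share of 12.5%, beside 29.8% over all tested genes, of which 16.2% were lower, and nothing is read from the count. Ddah1, which degrades methylarginines that inhibit NO synthases, gave 8.30, 8.46 and 8.14 in LysMCre/Cre arrays and 7.75, 7.92 and 7.93 in the others (-0.44 ± 0.083, adjusted p = 3.92e-04). The endothelial and neuronal NO synthases were dim and did not pass: Nos1 changed by -0.10 (adjusted p = 0.466), with the opposite sign without KLF2∆/∆ replicate 2 (0.030), and Nos3, chosen after its values were seen, by 0.013 (adjusted p = 0.940). Nosip, an NO synthase-interacting protein, changed by 0.15 (adjusted p = 0.0872). It passed without KLF2∆/∆ replicate 1 (0.19, adjusted p = 0.0447) and after quantile normalization was applied again (adjusted p = 0.0141). Cygb changed by -0.042 (adjusted p = 0.720). Both subunits of the NO receptor, Gucy1a1 and Gucy1b1, lay below the filter.

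Of 9 tested factors and signals known to act on Nos2, 3 rose, none fell and 6 did not pass, a called share of 33.3% beside 29.8% over all tested genes. The interferon regulatory factors Irf8 and Irf1 rose by 0.30 ± 0.054 (adjusted p = 2.27e-04) and 0.21 ± 0.039 (adjusted p = 3.04e-04), and the interferon-gamma receptor chain Ifngr2 by 0.14 ± 0.036 (adjusted p = 0.00395, but 0.0777 without the intensity trend). Tlr4, the LPS receptor, changed by -0.17 (adjusted p = 0.0967). The median was 0.081, against 0.0019 over all tested genes.

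Factors and signals known to act on Arg1 split, and 12 of 13 passed, 7 higher and 5 lower (median 0.12), where 29.8% of all tested genes passed, 13.6% as higher and 16.2% as lower. Il6, a cytokine reported to raise Arg1 in macrophages, gave 11.94, 11.97 and 12.23 in LysMCre/Cre arrays and 10.44, 10.68 and 10.26 in KLF2∆/∆-labelled arrays (-1.59 ± 0.082, adjusted p = 1.75e-11). Epas1, the HIF-2 alpha subunit, gave 10.59, 10.54 and 10.56 against 9.44, 9.58 and 9.59 (-1.03 ± 0.057, adjusted p = 4.15e-11). In the other direction, Il10, which can also raise Arg1, went from 7.96 ± 0.089 to 9.19 ± 0.091 (SD; 1.23 ± 0.071 SE, adjusted p = 7.45e-11), and the nuclear receptor Pparg from 8.88 to 9.41 (0.53 ± 0.062, adjusted p = 1.24e-06). The count of 7 fell to 3 without LysMCre/Cre replicate 1 or 2. Over the 8 lists of pathway neighbours and regulators, 57 genes were tested, of which 13 rose and 13 fell (45.6% called, beside 29.8% of all tested genes). The lists were chosen with earlier results of these data known, so nothing is read from their called shares.

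**Figure D4:**
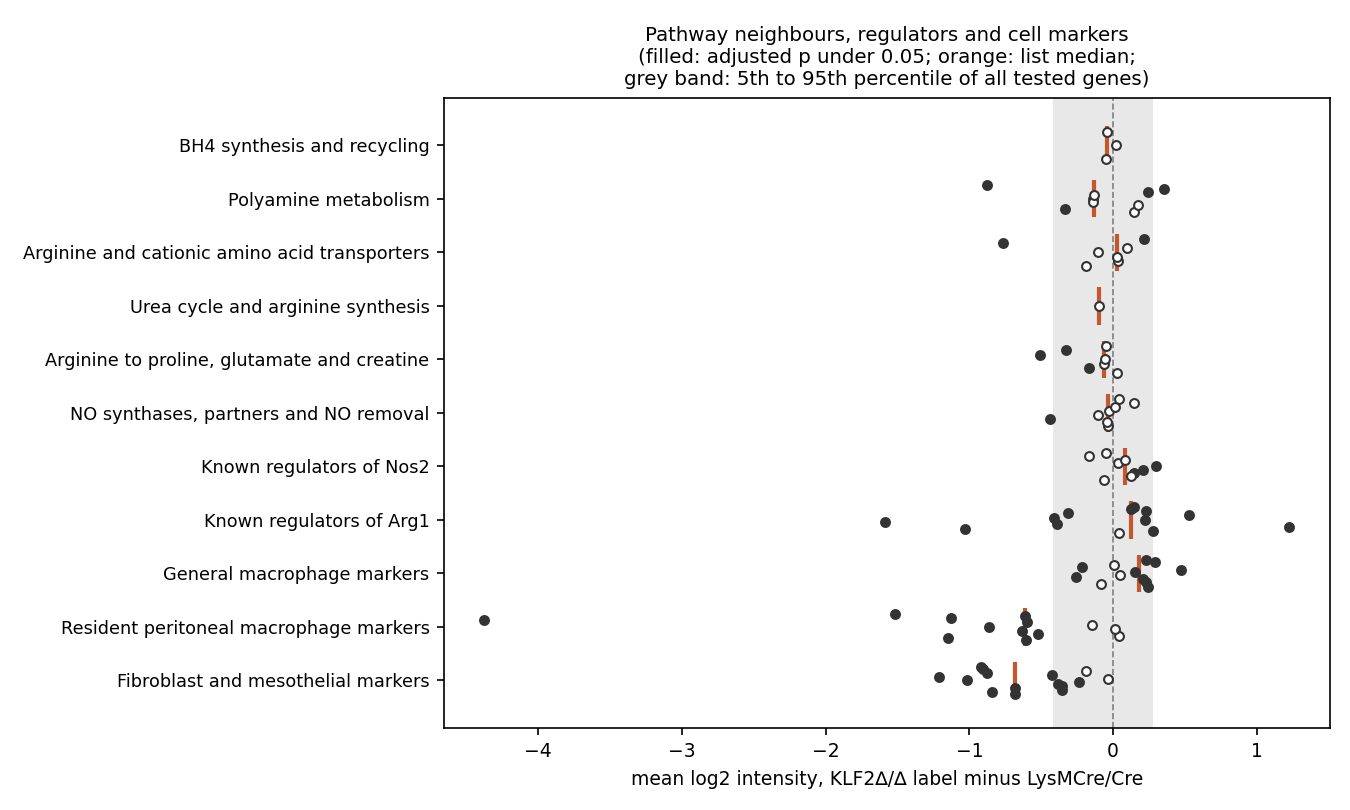
Difference of mean log2 intensity, KLF2∆/∆-labelled arrays minus LysMCre/Cre arrays (x axis), for each tested gene of the pathway and marker lists (members left out); filled points have a limma adjusted p under 0.05, orange bars are list medians and the grey band runs from the 5th to the 95th percentile of all tested genes (-0.41 to 0.27). Srm, Slc7a6 and Gatm lie left of the band, regulators of Arg1 spread to both sides of it, and the resident macrophage and stromal markers lie mostly to its left.

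The arrays also differed in cell markers, and in such bulk samples fewer cells of a type and less RNA per cell cannot be told apart. Each count below stands beside 29.8% of all tested genes that passed, 13.6% as higher and 16.2% as lower. General macrophage markers were bright in both groups, with a summed linear intensity of 63708 to 64245 over 12 genes in LysMCre/Cre arrays and 70150 to 71246 in KLF2∆/∆-labelled arrays. Of 12 tested, 7 rose, led by Fcgr1 (0.47), C1qb (0.23) and Spi1 (0.23). The 2 that fell, named after their values were seen, were Cd14 (-0.26) and Itgam (-0.21). All 12 lay above the filter. Resident peritoneal macrophage markers summed to 37105 to 37946 against 22801 to 24371 over 13 genes, and 10 of 13 fell, led by Prg4 (-4.37 as measured, its lower mean under the filter), Vsig4 (-1.52) and Serpinb2 (-1.12). Fibroblast and mesothelial markers summed to 22778 to 22985 against 13145 to 14437 over 17 genes, and 13 of 15 tested fell, with the collagen gene Col1a2 at -0.85, Sparc at -0.88 and Pdgfra at -1.21. Lum and Muc16 lay below the filter. Neutrophil markers summed to 5920 to 6170 against 7230 to 7586 over 12 genes, a sum made up mostly of the brightest, Csf3r (11.92 to 12.30). Of 6 tested, 3 rose, named after their values were seen: Mmp8 (0.74), Csf3r (0.38) and S100a9 (0.26). The call of S100a9 was lost under 8 of 17 alternatives. Ly6g, S100a8, Mpo, Ltf, Ngp and Cxcr2 lay below the filter. The part of these cells in the lower Arg1, Slc7a2 and Odc1 and the higher Nos2 was not tested.

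Other cell types gave few called markers. Neither the 1 tested eosinophil marker nor any of 4 tested B cell markers passed (unadjusted limma p above 0.05 for each), while the B cell marker Ms4a1, chosen after its values were seen, lay below the filter at 7.26, 7.32 and 7.17 against 7.64, 7.65 and 7.65 (0.40 as measured, adjusted p = 6.36e-04 without the filter). Of the others, 1 of 3 T and NK cell markers rose, and both tested mast cell markers fell, where 5 of the 7 listed lay below the filter. With 29.8% of all tested genes passing, nothing is read from so few markers.

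The genes whose 6 log2 values most resembled those of Arg1, by Pearson's r over the 6 arrays with members and predicted genes passed over, were the procollagen protease Bmp1 (0.999), the matrix protein Fbln2 (0.999), the netrin receptor Unc5b (0.999), fibronectin, Fn1 (0.999), and the translation elongation factor Eef1b2 (0.998). For Nos2 they were Stat2, a transducer of interferon signals (0.998), Stom (0.997), the fatty acid transporter Slc27a1 (0.997), the lysosomal sulfatase Arsb (0.997) and Tmem251 (0.996). For Slc7a2 they were Inhba, a subunit of activin A (0.999), Kdelr1 (0.998), the glutamine transporter Slc1a5 (0.995), Fgfr2 (0.995) and Hadh (0.994). These values are a description over 6 arrays in 2 groups, where any gene that differs cleanly between the groups scores high: 917 tested genes reached 0.95 with Arg1, 495 with Nos2 and 639 with Slc7a2.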

How the data were processed

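The 6 arrays measure RNA by hybridisation, from 150 ng of total RNA per the labels' protocols. The authors deposited log2 intensities per probe set, for which the submitters' processing notes name RMA (background correction, quantile normalization and probe summary) and Affymetrix Expression Console, and the same values as linear intensity per the file headers (largest log2 discrepancy 5.05e-05). RMA forces the arrays to alike distributions, which hides any shift common to most genes, and it compresses ratios of dim and very bright probe sets. No source used here gives versions, scan dates or the build, so batches were not tested. All arrays differed from each other.

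Of 35557 probe sets, 6613 controls were left out. Symbols came from the platform annotation, updated by gene identifier (21698 of 21789 single-gene probe sets matched). Each gene took its brightest single-gene probe set, and genes under the 40th percentile of mean intensity were dropped, leaving 12649. The groups' means were compared in limma 3.58.1 in R 4.3.3 (intensity trend, no replicate block, two-sided, Benjamini-Hochberg, threshold 0.05), tested on simulated data. Probe sets naming Ass1 and the second Odc1 probe set were tested in an added fit over all 17366 probe sets above the filter. Exact permutation tests used scipy 1.17.1, and figures matplotlib 3.10.9. The number of arrays limits the precision.

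Members and lists were chosen with earlier results of these data known. The text names the members, Klf2, and up to 4 genes of each pathway list and 3 of each main marker list by smallest p; other genes are said to have been chosen after their values were seen. For Arg1, Nos2 and Slc7a2 the 5 genes with the highest r are named. Alternatives are in the closing section.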

Additional observations from a re-analysis of the deposited data

How the results depend on the processing

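The 4 member calls (Nos2 higher, and Arg1, Slc7a2 and Odc1 lower) held under all 17 alternatives: a replicate block, 2 other scalings, array weights, 2 variance models, 2 filters, averaged probe sets, a fit over all probe sets (added after seeing the data), the linear table and leaving out each array. Over these, the log2 difference ran from -1.43 to -1.32 for Arg1, 0.44 to 0.49 for Nos2, -0.43 to -0.37 for Slc7a2 and -0.50 to -0.35 for Odc1. They also held at an adjusted p of 0.01. Not all the alternatives are separate checks. The linear table holds the same values, and averaging changed the difference of Odc1 alone, as Arg1, Nos2 and Slc7a2 have 1 probe set each. With the replicate number as a block, 1 member was higher and 3 lower, as without it, at -1.37 for Arg1 (adjusted p = 5.74e-18). The submitters' design text speaks of pairs, but no method states a paired test. Same-numbered arrays had correlations of -0.091, 0.12 and -0.049 of their deviations from the group means. LysMCre/Cre replicate 3 and KLF2∆/∆ replicate 1 had 0.18. With so few arrays, such values cannot decide whether the numbers pair them. Slc7a1 passed only under renewed quantile normalization (-0.13), and the Ass1/Gm5424 shift against Asl moved to 0.17 there. Values that changed sign were near 0. Leaving out single arrays, the difference ran from -0.012 to 0.12 for Arg2, -0.017 to 0.12 for Gch1, -0.044 to 0.085 for Pts, -0.050 to 0.13 for Gch1 minus Pts, -0.045 to 0.082 for Qdpr, -0.18 to 0.030 for Nos1 and -0.033 to 0.044 for Lyz2, the Cre-bearing gene. The causes were not tested. Over the pathway lists, the 13 higher genes ranged from 9 to 17 and the 13 lower from 11 to 13, and under renewed quantile normalization 4 polyamine genes rose. Of the NO synthase list, none fell with a filter at the 60th percentile (1 otherwise) and 1 rose (none otherwise) under renewed quantile normalization and without KLF2∆/∆ replicate 1. The median difference over all genes moved by at most 0.02 under any scaling.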
